A study of Danio rerio with 24 samples.

Results

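The effect of bacterial lipopolysaccharide (LPS) on gene expression was set side by side in the liver and in the skeletal muscle of adult zebrafish. For each gene, the effect in a tissue was the log2 signal after LPS minus that after PBS, and the value of interest was the effect in the liver minus the effect in the muscle. All 16 arrays of these tissues were used, of 24 in the series, which make 8 for the liver and 8 for the muscle. The groups were liver after LPS, liver after PBS, muscle after LPS and muscle after PBS, with 4 arrays in each. All fish were wild type, 9 months old and on the normal diet, and were sampled 3 hours after an intraperitoneal injection of 10 μg of LPS or of PBS as the control. Each array held RNA from a pool of 3 fish, and each group spanned more than 1 array slide. The spread between arrays thus holds the spread between pools together with that between slides. The sex of the fish is not given in the sources used here. In pooled bulk RNA, a change in the number of cells of a type and a change in the RNA per cell cannot be told apart.

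LPS is the surface glycolipid of Gram-negative bacteria. Its recognition by innate receptors activates NF-κB and AP-1 transcription factors, which switch on cytokines, chemokines and, with a delay, the inhibitors that end the response. The liver takes up material from the peritoneal cavity and the blood and secretes the acute phase proteins, whereas skeletal muscle is made mostly of contractile fibres. Neutrophils leave their marrow, which is the head kidney in fish, and move through the blood into inflamed tissue.

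Levels are given as log2 signal relative to the array's 75th percentile, so that 0 is a bright probe and negative values are dimmer. A call needed a limma adjusted p under 0.05, over all 42113 probes tested, on 1 or more probes of the gene, and the values given are those of its brightest probe. With 12619 genes tested, 1 gene (0.00792%) was called for a difference between the tissues, *npsn*, and it was higher in the liver. This fit treats the arrays as independent pools. Whether liver and muscle of a replicate number came from the same fish is not stated in the sources. With the pool as a block across tissues, 1016 genes were called. The values below are from the fit without this block unless an alternative is named. Without adjustment, 829 genes (6.57%) had p under 0.05 in the direction of a higher effect in the liver and 1298 genes (10.3%) in the direction of a lower one. Counts of list members at such a p are to be read against these shares. The median difference over all genes was 0.27 and the median standard error of a difference was 0.78, so list medians below are to be read against 0.27. In the same fit, LPS changed 167 genes in the liver (1.32%), 117 of them higher (0.927%) and 50 lower (0.396%), and 3 genes in the muscle (0.0238%), all higher. The liver count depended on single arrays, with 45 genes without liver LPS replicate 4 and 861 without liver PBS replicate 2. With slide as a fixed block it was 12 genes, and liver LPS replicates 2 to 4 were on a slide without a liver PBS array. At an unadjusted p under 0.05, 6.74% of genes were higher after LPS in the liver. LPS and PBS arrays lay wholly apart for 12.8% of genes in the liver and 2.13% in the muscle, against which the separations below are to be read.

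The arrays matched their tissue labels on defining markers, with exceptions that touch the results. The mean level of 14 hepatocyte markers was 1.96 to 6.37 on the liver LPS arrays, 3.97 to 6.05 on the liver PBS arrays, -0.30 to 3.93 on the muscle LPS arrays and 1.09 to 3.5 on the muscle PBS arrays. Liver LPS replicate 2 held the 1.96, far under the other liver LPS arrays, and muscle LPS replicate 4 and muscle PBS replicate 2 held the 3.93 and the 3.5. The mean level of 38 skeletal muscle markers was 3.24 to 4.95 on muscle LPS arrays and 3.03 to 5.49 on muscle PBS arrays, against -3.91 to -1.58 over the 8 liver arrays. Transcripts known from oocytes and germ cells were plentiful on many arrays. The mean of 35 such markers was -0.82 to 0.28 on liver LPS arrays, 0.43 to 3.63 on liver PBS arrays, 3.67 to 4.07 on muscle LPS arrays and 1.05 to 4.26 on muscle PBS arrays. The liver LPS arrays thus lay below all liver PBS arrays on this list. Liver PBS replicate 1 was lowest of the liver arrays for macrophage markers (-1.18) and red blood cell markers (-2.31). More spots were well above background on the muscle LPS arrays (63.8% to 71.1%) than on the muscle PBS arrays (57.3% to 63.5%). The liver arrays had fewer, 39.4% to 55.7% after LPS and 42.5% to 52.4% after PBS. The lowest signal detected on a liver array lay between -3.72 and -1.72. Probes that were never above background in the muscle had a median muscle effect of -0.61, against -0.06 for those always above it.

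**Figure D1:**
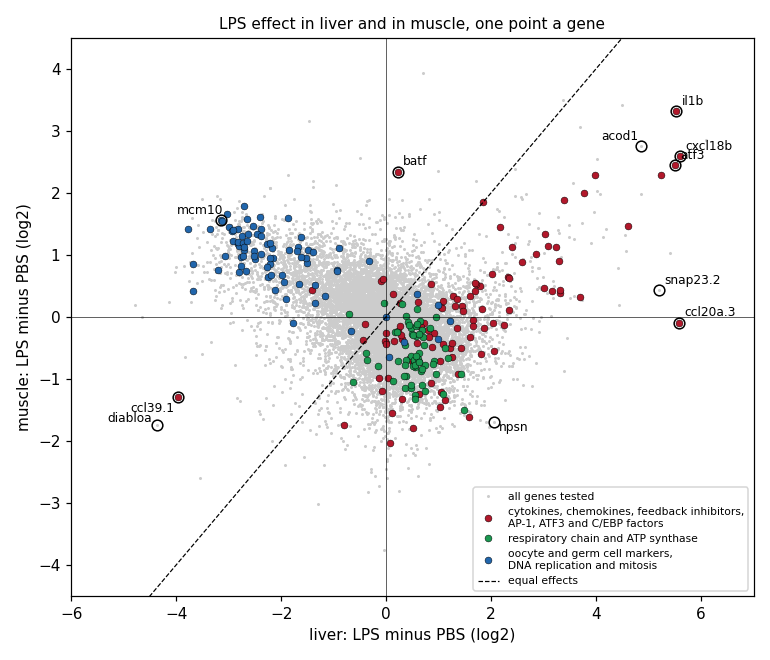
Each point is a gene, with its LPS effect in the liver (LPS minus PBS, log2) on the horizontal axis and in the muscle on the vertical axis. The dashed line marks equal effects, the colours gene lists and the circles single genes. Inflammatory genes spread to the right, with *ccl20a.3* at 5.58 in the liver and -0.09 in the muscle, while oocyte and DNA replication genes gather at the upper left.

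The called gene, *npsn*, encodes nephrosin, an astacin metalloprotease that is known from the neutrophils of fish. On the called probe, its level was -1.37, -1.89, -0.24 and -1.37 on the liver LPS arrays, against -3.32, -4.10, -4.44 and -3.86 on the liver PBS arrays. The muscle levels were -4.08, -2.77, -3.79 and -3.22 after LPS, against -1.21, -0.83, -1.83 and -0.73 after PBS. The arrays of both treatments lay apart in each tissue, and the order was opposite, with LPS above PBS in the liver and LPS below PBS in the muscle. Its effect was 2.71 for liver (limma adjusted p = 0.00627) and -2.31 for muscle (limma adjusted p = 0.186, not past the threshold), a difference of 5.03 (standard error 0.62, limma adjusted p = 0.0137). No liver PBS array was well above background for this probe, so that in the liver it was at least 2.94-fold higher after LPS, and with this limit in place of the measured level the difference was 3.87.

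The other 3 probes of *npsn* pointed the same way and did not pass. Their differences were 3.74 (standard error 0.97, limma adjusted p = 0.247), 2.45 (standard error 1.08) and 1.01 (standard error 0.64). The last of these was at background on every array, and the probe of 2.45 is listed under another accession than the rest. The brightest of these 3 probes had levels of -2.37, -0.87, 0.59 and -0.84 on the liver LPS arrays, against -3.28, -3.70, -2.36 and -2.35 on the liver PBS arrays, and -2.99, -1.34, -2.95 and -2.44 on the muscle LPS arrays, against 0.12, -0.98, -2.58 and 0.47 on the muscle PBS arrays. LPS and PBS arrays overlapped in both tissues for this probe. When the probes of a gene were averaged before the fit, no gene was called for the difference. The call was also lost without liver PBS replicate 2, 3 or 4, without muscle PBS replicate 4 and without muscle LPS replicate 1 or 3, where 0 genes were called. With slide as a fixed block it was lost as well. Of the liver arrays, slide 6 held LPS replicate 1 and PBS replicates 2 to 4. Slide 7 held LPS replicates 2 to 4, and slide 5 PBS replicate 1. Treatment and slide were thus largely confounded in the liver. Slides 10 and 4 held muscle arrays of both treatments. Within slides, the difference on the brightest probe, which is not the called one, was 1.52 (slide 6 minus 10) and 2.45 (slide 6 minus 4), against 3.74 over all arrays. On the called probe, the liver arrays of slide 6 had -1.37 after LPS, against -4.10, -4.44 and -3.86 after PBS. Its muscle levels were -2.77 and -3.79 after LPS, against -1.83 and -0.73 after PBS, on slide 10. They were -4.08 after LPS and -0.83 after PBS on slide 4. The liver part of these values rests on 1 LPS array, which had the smallest share of spots well above background (39.4%).

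**Figure D2:**
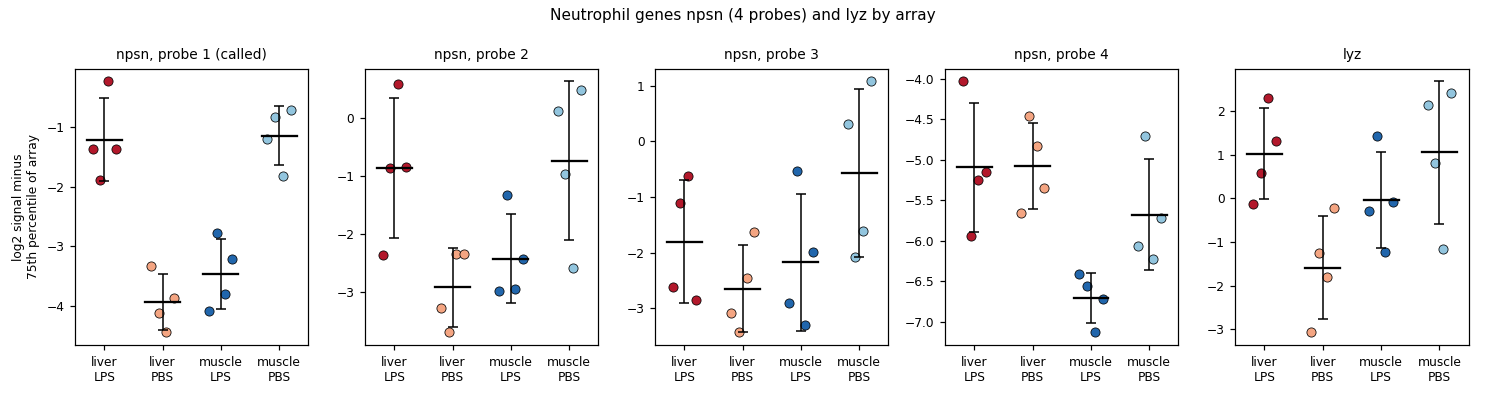
Level (log2 signal minus the array's 75th percentile, vertical axis) of the 4 probes of *npsn*, in order of their difference, and of *lyz* on the liver LPS, liver PBS, muscle LPS and muscle PBS arrays; points are arrays, lines the means and bars the SD (n = 4). On the called probe the liver LPS and muscle PBS arrays lie between -1.89 and -0.24 and the other groups between -4.44 and -2.77.

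Of the 10 other neutrophil markers tested, 3 had an unadjusted p under 0.05 for the difference, all in the direction of a higher effect in the liver. The median difference over the list, *npsn* included, was 1.61. *lyz*, the lysozyme of neutrophils and macrophages, had levels of -0.13, 0.58, 2.3 and 1.32 on the liver LPS arrays, against -3.07, -1.25, -1.80 and -0.23 on the liver PBS arrays. On the muscle arrays it had -0.29, 1.42, -1.22 and -0.08 after LPS, against 2.13, 0.82, -1.16 and 2.42 after PBS. Its liver groups did not overlap and its muscle groups did, and the difference was 3.70 (standard error 1.13), short of the threshold with a limma adjusted p of 0.247. The calcium-binding protein gene *s100a10b* (2.07) and the gelatinase gene *mmp9* (1.91) were the remaining members with an unadjusted p under 0.05. The effects of *s100a10b* were 0.61 in the liver and -1.46 in the muscle. Those of *mmp9* were 1.64 and -0.27, and none of these effects was called. The mean level of the list was 0.03 to 1.04 on liver LPS arrays, -1.85 to -0.46 on liver PBS arrays, -1.69 to -0.02 on muscle LPS arrays and -1.84 to 0.01 on muscle PBS arrays, so only the liver groups were separate.

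Chemokines, which direct leukocytes to a site, showed the highest median difference among the 37 lists described. Of 26 genes tested, 12 had an unadjusted p under 0.05 for a higher effect in the liver, against 6.57% of all genes, and 1 for a lower effect, against 10.3%. The median difference was 1.81, made of medians of 1.17 in the liver and -0.42 in the muscle. Macrophage and dendritic cell markers moved alongside the inflammatory lists, with 18 of 19 differences positive, a median difference of 1.55 and 2 higher and 1 lower at an unadjusted p under 0.05. The mean level of these markers was 1.08 to 1.77 on the liver LPS arrays, -1.18 to 0.95 on the liver PBS arrays, -0.97 to 0.41 on the muscle LPS arrays and -1.50 to 0.86 on the muscle PBS arrays, separate in the liver alone, and their part in the inflammatory lists was not tested. The mean level of the chemokines was 0.04 to 0.11 on the liver LPS arrays, -2.79 to -0.46 on the liver PBS arrays, -1.88 to -0.23 on the muscle LPS arrays and -1.82 to 0.71 on the muscle PBS arrays.

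*ccl20a.3*, a CCL20-like chemokine, had the largest difference among the named genes. Its level was 4.85, 2.92, 4.62 and 4.93 on the liver LPS arrays, against -2.44, 0.33, -2.2 and -0.69 on the liver PBS arrays, and it rose 47.9-fold there (log2 5.58, standard error 0.77, limma adjusted p = 0.00227). For the muscle arrays they were -1.27, 0.20, -0.13 and 1.24 after LPS, against -1.44, 1.99, -0.37 and 0.23 after PBS. The liver groups were far apart and the muscle groups lay within each other. The muscle effect was -0.09 with a 95% interval of -1.72 to 1.53. The difference was 5.68 (standard error 1.09, unadjusted p = 7.26e-05, limma adjusted p = 0.247), and a further probe of the gene gave 5.49.

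*cxcl18b*, a CXC chemokine of fish, was higher after LPS in both tissues. It had levels of 5.76, 4.92, 5.38 and 6.39 on the liver LPS arrays, against -1.17, 0.79, -0.31 and 0.71 on the liver PBS arrays. The muscle arrays gave 2.96, 3.22, 1.94 and 2.92 after LPS, against -0.79, 2.28, -1.26 and 0.44 after PBS. Muscle PBS replicate 2 at 2.28 was the array that reached into the range of the LPS arrays. The effect was 5.60 in the liver (limma adjusted p = 0.000693) and 2.59 in the muscle (limma adjusted p = 0.795), and the difference was 3.02 (standard error 0.94, limma adjusted p = 0.247).

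Other chemokines had other patterns. The difference of *ccl25b*, a chemokine known for thymus and gut homing, came from both tissues in opposite directions, since its level was 1.11, 1.31, 1.48 and 1.28 on the liver LPS arrays, against -1.41, -0.02, -0.22 and 0.54 on the liver PBS arrays, and 1.95, 2.5, 1.91 and 1.63 on the muscle LPS arrays, against 2.53, 4.71 and 3.61 on the 3 muscle PBS arrays without an outlier spot. Neither tissue's groups overlapped, though the highest muscle LPS array (2.5) lay close to the lowest muscle PBS array (2.53). The effects were 1.58 in the liver (limma adjusted p = 0.1465) and -1.62 in the muscle (limma adjusted p = 0.795), neither called. Their difference was 3.2 (standard error 0.71, limma adjusted p = 0.247). *ccl39.1* was the chemokine with a lower effect in the liver. It had -2.94, -3.28, -2.10 and -2.15 on the liver LPS arrays, against 0.61, 2.09, 0.60 and 2.14 on the liver PBS arrays, a fall of 3.97 on the log2 scale (called in the liver, limma adjusted p = 0.0104). In the muscle the LPS arrays gave -4.74, -1.18, -3.11 and -3.0, against -2.27, -0.37, -1.35 and -2.87 on the PBS arrays. The muscle groups overlapped, with an effect of -1.29, and the difference was -2.68 (standard error 0.97, limma adjusted p = 0.263). *ccl35.1* (2.94), *ccl34a.4* (3.15) and *ccl19a.1* (3.38) were called as higher in the liver, and their differences had unadjusted p under 0.05 without passing the adjustment.

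Among 28 cytokine genes, 9 had an unadjusted p under 0.05 for a higher effect in the liver and 0 for a lower one, and the median difference was 1.51. It was made of medians of 1.17 in the liver and -0.31 in the muscle. Of the 28, 12 were well above background on 1 or more arrays of every group. *il1b*, the inflammasome-processed cytokine interleukin-1β, had levels of 0.78, 1.12, 1.64 and 2.85 on the liver LPS arrays, against -4.06, -3.50, -4.45 and -3.72 on the liver PBS arrays. In the muscle it had -0.65, 0.62, -1.34 and -0.54 after LPS, against -3.27, -2.65, -5.13 and -4.15 after PBS. LPS and PBS arrays were separate in both tissues. It was not well above background on any liver PBS array, and was at least 20.9-fold higher there after LPS (limma adjusted p = 0.000264). The muscle effect was 3.32, with a 95% interval of 2.11 to 4.53 and a limma adjusted p of 0.113. The measured difference of 2.21 did not pass (limma adjusted p = 0.27), and with the limit of detection in the liver PBS group it was 1.06.

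*tnfa*, tumour necrosis factor, had levels of -0.13, 0.02, 0.28 and 0.85 on the liver LPS arrays, against -5.10, -1.95, -4.3 and -3.53 on the liver PBS arrays, and -3.08, -1.15, -2.44 and -1.92 on the muscle LPS arrays, against -4.88, -3.17, -5.34 and -4.38 on the muscle PBS arrays. The groups were separate in both tissues. The effects were 3.97 in the liver (limma adjusted p = 0.00564) and 2.29 in the muscle (limma adjusted p = 0.795), and the 95% interval of the difference, -0.18 to 3.55, included 0. *il34*, a ligand of the macrophage receptor CSF1R, had 3.22, 2.41, 3.02 and 4.1 on the liver LPS arrays, against -0.99, 0.54, -0.64 and 0.61 on the liver PBS arrays, and -0.19, 2.06, 0.62 and 0.97 on the muscle LPS arrays, against -0.42, 1.93, -0.64 and 1.06 on the muscle PBS arrays. Only the liver groups were separate for *il34* on this probe, with a called liver effect of 3.31, a muscle effect of 0.38 and a difference of 2.93 (standard error 0.88, limma adjusted p = 0.247). A further, dimmer probe of *il34* gave effects of 3.83 in the liver and 1.67 in the muscle, a difference of 2.16. The type I interferon *ifnphi1* (2.60), the interferon gamma relative *ifng1r* (2.37), the B cell factor *tnfsf13b* (2.87) and the anti-inflammatory *il10* (2.12) were also called as higher in the liver, with muscle effects between -0.56 and 1.12, and none passed for the difference. For the interferon gamma gene *ifng1* the difference of 1.51 had a 95% interval of -0.38 to 3.39. *il17c*, an epithelial cytokine outside that list, had a liver effect of 3.34 (called, at least 3.01-fold) and a muscle effect of 0.35. With limits of detection in groups at background, the differences were 1.18 for *il10*, 1.27 for *tnfsf13b*, 0.23 for *ifng1* and 1.24 for *il17c*.

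**Figure D3:**
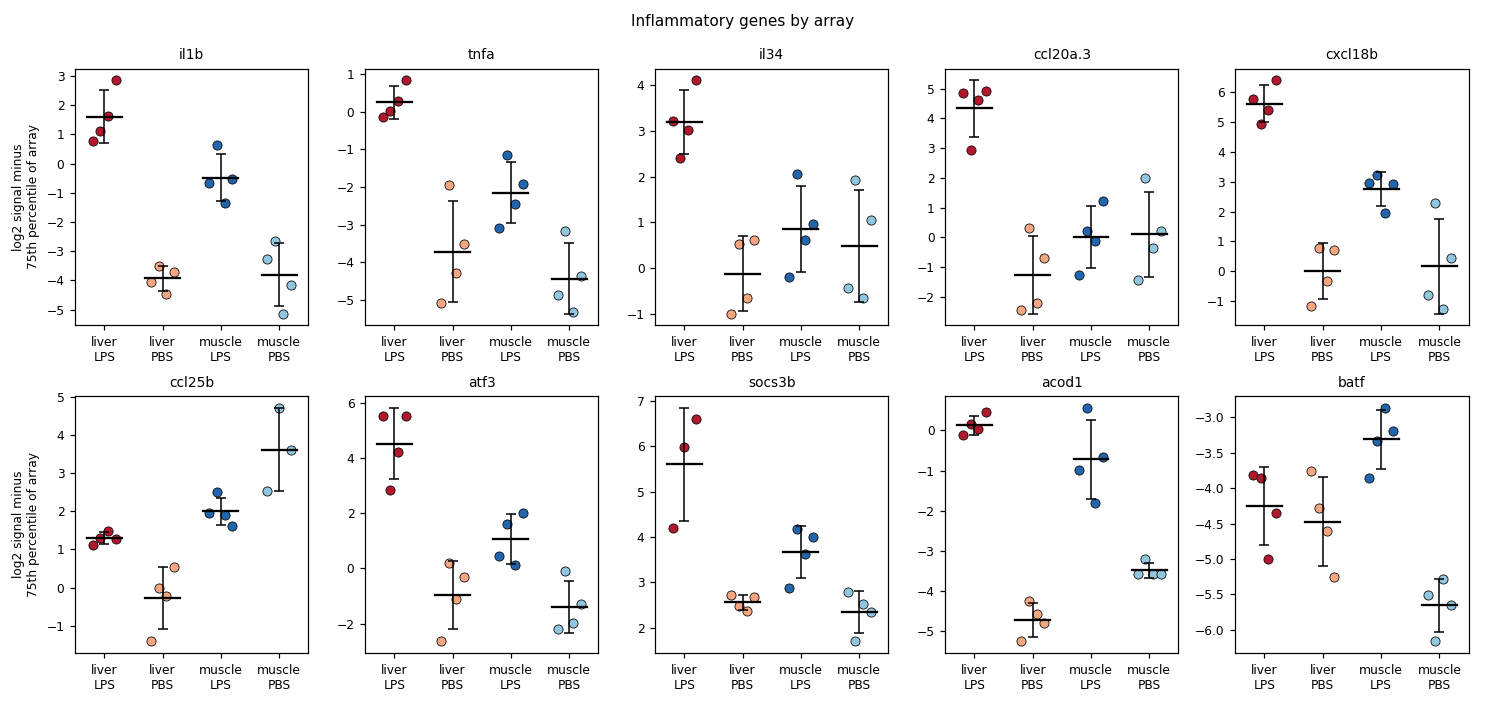
Level (log2 signal minus the array's 75th percentile, vertical axis) of 10 inflammatory genes on the liver LPS, liver PBS, muscle LPS and muscle PBS arrays; points are arrays, lines the means and bars the SD (n = 4, or fewer where an outlier spot was left out). On the brightest probe of each gene, *il1b*, *tnfa* and *acod1* have separate LPS and PBS arrays in both tissues, and *ccl20a.3* and *il34* in the liver alone.

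Transcription factors that switch on early after a stimulus had positive differences as well. Of 30 AP-1, ATF3 and C/EBP genes, 10 had an unadjusted p under 0.05 for a higher effect in the liver and 1 for a lower one, with a median difference of 1.27. *atf3*, a stress-induced factor that restrains inflammatory transcription, had levels of 5.54, 2.84, 4.21 and 5.52 on the liver LPS arrays, against -2.64, 0.19, -1.12 and -0.32 on the liver PBS arrays. The muscle levels were 0.44, 1.62, 0.13 and 2.01 after LPS, against -2.19, -0.10, -1.98 and -1.30 after PBS. Both tissues had separate groups, and the effect was 5.50 in the liver (limma adjusted p = 0.00157) and 2.45 in the muscle (limma adjusted p = 0.795), a difference of 3.05 (standard error 1.01, limma adjusted p = 0.248). *junba* (2.54), *fosl2* (2.76) and the immediate early gene *ier2a* (2.39) were called as higher in the liver, with muscle effects of 0.41 to 0.90.

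The lower effect in this list was that of *batf*, an AP-1 partner known from lymphocytes and dendritic cells. Its level was -3.82, -3.86, -5.0 and -4.35 on the liver LPS arrays, against -3.76, -4.28, -4.60 and -5.26 on the liver PBS arrays, and no liver array was well above background. For the muscle arrays they were -3.86, -3.33, -2.87 and -3.19 after LPS, against -5.51, -6.16, -5.29 and -5.66 after PBS. All 4 muscle LPS arrays were well above background and no muscle PBS array was, so that the gene was at least 1.73-fold higher in muscle after LPS (measured effect 2.34, limma adjusted p = 0.113). The measured difference was -2.12 (standard error 0.57, limma adjusted p = 0.247), with a liver effect of 0.22 at background, and it was -0.83 with limits of detection.

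Feedback inhibitors held the most liver calls for their number among the inflammatory lists. Of 17 tested, 8 were called as higher in the liver and none in the muscle, 7 had an unadjusted p under 0.05 for a higher effect in the liver and 0 for a lower one, and the median difference was 1.33. *socs3b*, an inhibitor of cytokine receptor signalling, had 4.21, 5.98 and 6.61 on the 3 liver LPS arrays without an outlier spot, against 2.73, 2.48, 2.37 and 2.67 on the liver PBS arrays. In the muscle it had 2.88, 4.19, 3.62 and 4.01 after LPS, against 2.78, 1.70, 2.53 and 2.34 after PBS. The groups were separate in both tissues, with effects of 3.03 in the liver (limma adjusted p = 0.0118) and 1.34 in the muscle (limma adjusted p = 0.795) and a difference of 1.70 (standard error 0.71). *socs1a* (1.71), the IκB protein gene *nfkbie* (1.33) and the TNF-induced *tnfaip2a* (1.91) also had unadjusted p under 0.05. Of 12 NF-κB subunits and kinases, *nfkb2* (1.15) and *rel* (1.65) did, in the direction of a higher effect in the liver, and both were called in the liver. *card9*, an adaptor of pattern receptors, had a liver effect of 2.66 and a muscle effect of 1.98 on its brightest probe, and was called in the liver through another probe (limma adjusted p = 0.0481), with a 95% interval of the difference of -1.16 to 2.51.

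Interferon-related genes and receptors had positive median differences too. Of 31 interferon regulatory factors and induced genes, 10 had an unadjusted p under 0.05 for a higher effect in the liver, 1 for a lower effect, and the median difference was 1.69, made of medians of 1.35 in the liver and -0.13 in the muscle. *irf10* had -0.93, -0.93, -0.98 and -1.09 on the liver LPS arrays, against -3.49, -1.83, -2.73 and -2.54 on the liver PBS arrays, and -3.10, -2.71, -2.77 and -2.63 on the muscle LPS arrays, against -2.67, -1.74, -3.24 and -2.25 on the muscle PBS arrays. Only the liver groups were separate, and the difference was 2.0 (standard error 0.56, limma adjusted p = 0.247). The antiviral GTPase gene *mxe* (2.57), *irf7* (2.07) and *irf3* (1.96) were next. The lower effect was that of *irf1a* (-3.51), which was not well above background on any liver LPS array and was named after its values were seen. Of 16 Toll-like receptors and adaptors, 5 had an unadjusted p under 0.05 for a higher effect in the liver and 0 for a lower one. These were the scavenger receptor *cd36* (3.2), the flagellin receptor *tlr5b* (2.77, called as higher in the liver), *tlr22* (1.43, at background on every array), the adaptor *myd88* (1.22) and *tlr4bb* (2.27, named after its values were seen). The difference of *cd36* was made of 0.82 in the liver and -2.38 in the muscle, neither called, with no muscle LPS array well above background. For *myd88* the liver effect was 1.12 and the muscle effect -0.11, with a 95% interval of the difference of 0.16 to 2.29. Of 9 TNF receptor family genes, *tnfrsf1a* (2.48), *tnfrsf1b* (1.77) and *tnfrsf9a* (2.22) had an unadjusted p under 0.05. With limits of detection, the differences were 0.74 for *irf3*, -1.51 for *irf1a*, 2.23 for *cd36* and 0.21 for *tnfrsf1b*.

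The genes called in the muscle were called in the liver as well, 3 of 3. *acod1*, which makes the macrophage metabolite itaconate, had levels of -0.11, 0.15, 0.03 and 0.45 on the liver LPS arrays, against -5.25, -4.25, -4.58 and -4.80 on the liver PBS arrays, none of which was well above background. The muscle levels were -0.98, 0.56, -1.79 and -0.66 after LPS, against -3.58, -3.20, -3.56 and -3.57 after PBS. The groups were separate in both tissues. It rose at least 7.55-fold in the liver (limma adjusted p = 6.33e-05) and 6.77-fold in the muscle (limma adjusted p = 0.04). The measured difference was 2.09 (standard error 0.61, limma adjusted p = 0.247), and 0.16 with the limit of detection in the liver PBS group, so that no difference in size between the tissues was established for *acod1*. *LOC567472* had -1.43, -0.16, -0.19 and 0.41 on the liver LPS arrays, against -5.50, -4.24, -4.46 and -5.19 on the liver PBS arrays, and -3.30, -1.22, -2.39 and -3.27 on the muscle LPS arrays, against -5.59, -6.09, -6.66 and -5.48 on the muscle PBS arrays. No PBS array of either tissue was well above background for it, and it was at least 5.43-fold higher in the liver and at least 2.95-fold higher in the muscle after LPS. The fatty acid receptor *gpr84* was called in the muscle through 1 of its 2 probes. On that probe its effects were 3.81 in the liver and 4.21 in the muscle, a difference of -0.40. Its brightest probe had effects of 3.56 in the liver and 2.16 in the muscle. The 95% intervals of the difference included 0 for *LOC567472* (1.09, from -0.47 to 2.65) and the brightest probe of *gpr84* (1.41, from -0.35 to 3.17). With limits of detection these differences were 0.88 and 0.27.

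Effector genes and death genes were mixed. Of 32 inflammatory enzymes and effectors, 11 had an unadjusted p under 0.05 for a higher effect in the liver and 0 for a lower one. *mpeg1.2*, a perforin of macrophages, had 2.62, 2.58, 2.64 and 2.69 on the liver LPS arrays, against -3.64, -1.29, -1.25 and -1.53 on the liver PBS arrays, and -0.03, 0.66, -0.15 and 0.37 on the muscle LPS arrays, against -1.96, 0.81, -3.23 and -0.04 on the muscle PBS arrays. The liver groups were separate and the muscle groups overlapped, with a difference of 3.24 (standard error 1.01, limma adjusted p = 0.247). The prostaglandin synthase *ptgs2a* (2.60, or 0.85 with the limit of detection) and the dendritic cell marker *cd83* (3.25) were called as higher in the liver. Of 27 caspases and Bcl-2 family genes, 7 had an unadjusted p under 0.05 for a higher effect in the liver, among them *casp9* (2.24) and *casp8* (1.69). The 1 gene with a lower effect was *diabloa*, whose product blocks inhibitors of apoptosis. It had 2.02, 1.9, 1.01 and 1.68 on the liver LPS arrays, against 4.80, 7.14, 5.36 and 6.77 on the liver PBS arrays, and -0.20, 0.25, 0.88 and 0.49 on the muscle LPS arrays, against 1.75, 3.94, 2.2 and 0.51 on the muscle PBS arrays. The liver groups were separate and the muscle groups overlapped. It fell in the liver (-4.37, limma adjusted p = 0.00316) and was lower without passing in the muscle (-1.74, limma adjusted p = 0.795), a difference of -2.62 (standard error 0.90, limma adjusted p = 0.254).

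Secreted liver proteins gave few low p values, with *saa*, the serum amyloid A gene, as the first of them. *saa* had 1.16, 0.61, 0.28 and 1.43 on the liver LPS arrays, against -5.39, -1.09, -4.55 and -3.14 on the liver PBS arrays, and 0.82, 1.16, 0.39 and 0.98 on the muscle LPS arrays, against -1.51, 1.67, -0.08 and 0.10 on the muscle PBS arrays. Its liver groups were separate and its muscle groups overlapped. The effect was 4.41 in the liver (limma adjusted p = 0.0104) and 0.80 in the muscle, a difference of 3.62 (standard error 1.08, limma adjusted p = 0.247), while a further probe gave 0.36. Of 28 acute phase and iron genes, 3 had an unadjusted p under 0.05 for a higher effect in the liver, among them *saa* and the transferrin receptor *tfr1b* (1.13), and the list median of 0.23 was near that of all genes. Medians were 0.50 for 23 complement genes, with *cfbl* (2.26) and *cfd* (1.94) at an unadjusted p under 0.05 (8.70%, against 6.57% of all genes), and -0.06 for 18 fibrinogen and clotting genes. Apolipoproteins (18 genes) had a median of 1.18 with 1 gene, *apoa4a* (1.70), at an unadjusted p under 0.05 (5.56%). Its effects were 0.68 in the liver and -1.02 in the muscle, neither called. Cytochrome P450 genes (65) had a median of 0.80 with 6 higher (9.23%, against 6.57% of all genes) and 2 lower (3.08%, against 10.3%). The 2 lower were the steroid synthesis genes *cyp11a1.1* (-4.05) and *cyp17a1* (-2.95), which are taken up again below with the oocyte markers.

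Several of the genes ranked highest by p for a higher effect in the liver stand outside the inflammatory lists. *egln3*, a prolyl hydroxylase of the hypoxia pathway, had 4.81, 4.5, 4.21 and 3.07 on the liver LPS arrays, against 1.22, 2.06, 1.52 and 1.49 on the liver PBS arrays, and -1.92, -0.76, -1.98 and -2.52 on the muscle LPS arrays, against -1.64, -1.49, -2.12 and -1.18 on the muscle PBS arrays. *higd1a*, a mitochondrial protein gene induced by hypoxia, had 2.59, 1.46, 2.22 and 2.51 on the liver LPS arrays, against -0.14, 0.45, 0.24 and -0.03 on the liver PBS arrays, and 0.82, 0.75, 0.43 and 0.25 on the muscle LPS arrays, against 0.88, 2.11, 1.37 and 0.72 on the muscle PBS arrays. Both were separate in the liver and overlapped in the muscle. Both were called in the liver (limma adjusted p = 0.0109 and 0.0159), and their differences were 2.77 (standard error 0.63) for *egln3* and 2.78 (standard error 0.54) for *higd1a*, each with a limma adjusted p of 0.247. *snap23.2*, a SNARE protein gene of vesicle fusion, had 3.72, 1.95, 3.25 and 4.08 on the liver LPS arrays, against -3.86, -0.36 and -1.63 on the 3 liver PBS arrays without an outlier spot. For the muscle arrays they were 1.31, 2.5, 1.58 and 2.22 after LPS, against 0.20, 3.44, 0.50 and 1.77 after PBS. The liver effect of 5.20 was called and the difference was 4.77 (standard error 1.14, limma adjusted p = 0.247). The transcription factor *ets2* (2.52), the kinase *pim2* (1.89) and the endocytic *ehd1b* (1.99) were called in the liver with muscle effects of -0.32 to 0.49. *ube2d1b* (1.89), *slc17a7a* (2.87), *or15.37* (2.89) and *crygs3* (3.06) were not called in either tissue, and *or15.37* was well above background on 1 array of the 16, with a difference of 1.14 at the limit of detection.

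Genes of the respiratory chain and ATP synthase formed the largest group with many low p values and a positive difference. Of 63 genes tested, 25 had an unadjusted p under 0.05 for a higher effect in the liver and 0 for a lower one, the median difference was 1.17, and none was called. After quantile normalization the median was 0.76, with 18 genes at such a p. Both tissues contributed to this median, with a median effect of 0.55 for liver and -0.70 for muscle, but not equally to the low p values. When each tissue was read by itself, 18 members fell after LPS in the muscle with such a p and 0 rose. The share that fell over all genes was 2.73%. In the liver 3 members rose with such a p and 0 fell, where 6.74% rose over all genes. The mean level of the list was 2.57 to 2.68 on the liver LPS arrays, 1.51 to 2.44 on the liver PBS arrays, 1.37 to 1.93 on the muscle LPS arrays and 1.97 to 2.57 on the muscle PBS arrays, with no overlap in either tissue. *sdhc*, a subunit of succinate dehydrogenase, had 4.72, 5.10, 4.84 and 4.74 on the liver LPS arrays, against 3.62, 4.59 and 4.13 on the 3 liver PBS arrays without an outlier spot, and 3.70, 4.60, 4.37 and 3.96 on the muscle LPS arrays, against 5.01, 5.56, 5.98 and 4.86 on the muscle PBS arrays. The groups were separate in both tissues, in opposite order, and the difference was 1.93 (standard error 0.54, limma adjusted p = 0.247). *ndufa7*, a subunit of complex I, had 2.81, 2.96, 2.79 and 2.61 on the liver LPS arrays, against 2.0, 2.64 and 2.34 on the 3 liver PBS arrays that were measured. In the muscle it had 2.48, 3.1, 3.06 and 2.90 after LPS, against 4.09, 4.05, 4.14 and 3.85 after PBS. Its muscle groups were separate and its liver groups overlapped, and the difference was 1.61 (standard error 0.46). The complex I subunits *ndufb8* (1.83) and *ndufs6* (1.78) were next. Proteasome subunits had a smaller median of 0.51, with 3 of 51 at an unadjusted p under 0.05 for a higher effect (5.88%, against 6.57% of all genes).

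**Figure D4:**
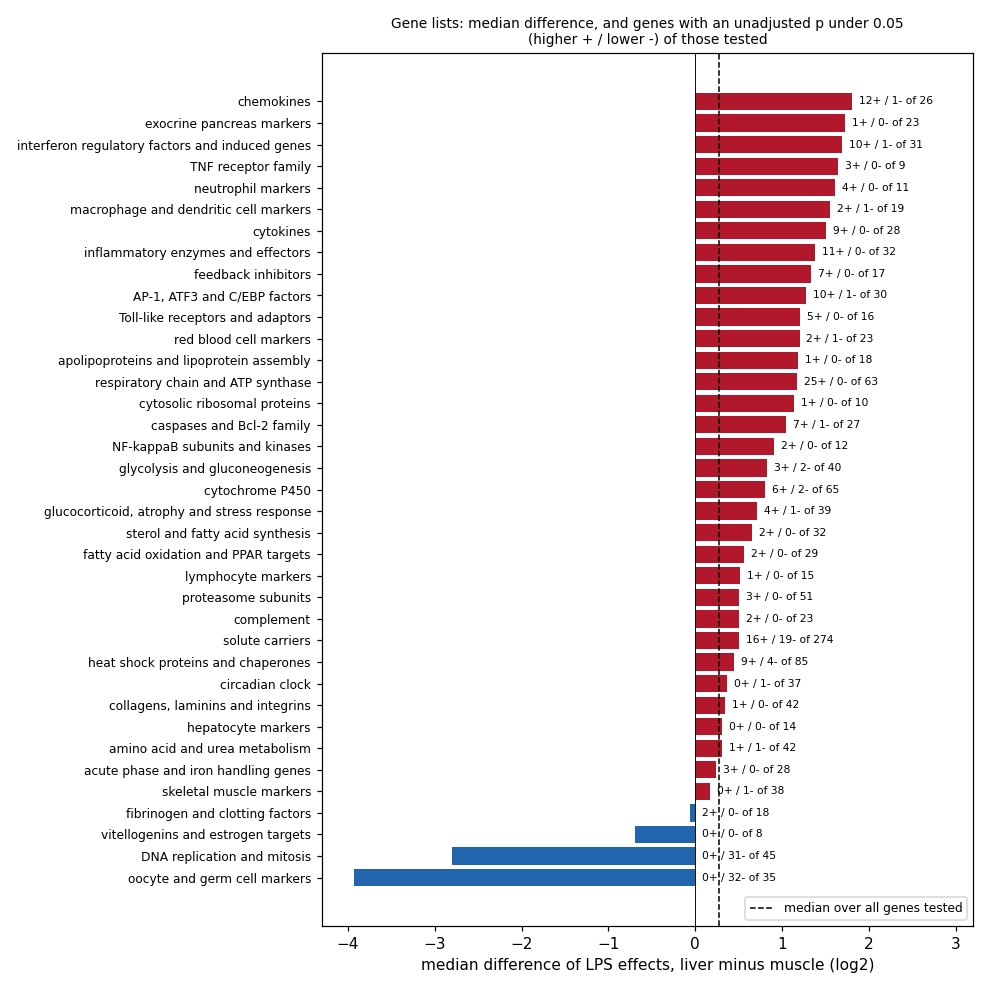
Median difference of LPS effects, liver minus muscle (log2, horizontal axis), of each gene list, with the number of genes at an unadjusted p under 0.05 for a higher (+) or lower (-) effect in the liver of those tested; the dashed line is the median over all genes, 0.27. Chemokines have the highest median, 1.81, and oocyte and germ cell markers the lowest, -3.93.

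The negative differences were of another kind. None passed the adjustment in this fit, whereas most genes called with the pool as a block across tissues had a negative difference. Of 35 oocyte and germ cell markers, 32 had an unadjusted p under 0.05 for a lower effect in the liver, against 10.3% of all genes, with a median difference of -3.93 that was made of -2.71 in the liver and 1.11 in the muscle. *zp3b*, an egg coat protein gene, had 3.25, 2.87, 3.02 and 2.3 on the liver LPS arrays, against 6.39, 3.77, 6.34 and 5.52 on the liver PBS arrays, and 7.09, 6.0, 7.06 and 6.99 on the muscle LPS arrays, against 6.89, 3.5, 7.15 and 4.70 on the muscle PBS arrays. Its liver groups were separate, and in the muscle PBS replicates 2 and 4 lay below all other muscle arrays. Genes of DNA replication and mitosis moved alongside, with 31 of 45 at an unadjusted p under 0.05 for a lower effect in the liver, 0 for a higher one, and a median of -2.80.

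*mcm10*, a factor that starts DNA replication, had -2.55, -1.96, -1.85 and -2.72 on the liver LPS arrays, against 1.89, 0.12, 1.22 and 0.25 on the liver PBS arrays. The muscle levels were 2.06, 1.01, 2.14 and 2.11 after LPS, against 1.66, -1.98, 1.56 and -0.17 after PBS. The liver groups were separate (effect -3.14, limma adjusted p = 0.0378), the muscle groups overlapped (effect 1.57, limma adjusted p = 0.795), and the difference was -4.71 (standard error 0.95, limma adjusted p = 0.247). *cpeb4a*, which regulates the translation of stored mRNA, had -2.78, -5.44, -4.63 and -4.43 on the liver LPS arrays, none well above background, against -0.08, -2.27, -0.76 and -1.0 on the liver PBS arrays. On the muscle arrays it had -0.17, -1.52, -0.13 and -0.02 after LPS, against -1.31, -2.02, -0.41 and -2.12 after PBS. It was at least 3.47-fold lower in the liver after LPS (limma adjusted p = 0.0149), and its measured difference was -4.3 (standard error 0.85, limma adjusted p = 0.247), or -2.80 with the limit of detection. *slc24a4a* (-3.73), *lgi1a* (-4.42), *trim35-27* (-4.68), *otx1* (-4.42), *fam113* (-4.97), *cep128* (-3.78), *henmt1* (-4.31), *zmym4.1* (-3.85), *dok6* (-4.36), *zgc:113691* (-4.66), *wdhd1* (-3.56), *si:ch211-241j12.3* (-4.11) and *racgap1* (-3.66) filled the 15 highest ranks of this direction. Of these, *lgi1a*, *trim35-27*, *dok6* and *zgc:113691* were at background on all liver LPS arrays, and their differences with the limit of detection were -2.79, -3.82, -2.55 and -3.33.

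The levels of these genes ran with those of the oocyte list on arrays outside the liver. Over the 16 arrays of kidney and muscle, 14 of the 15 genes had a correlation above 0.8 with the mean of the oocyte list, as did 8.75% of all genes and 0 of the 15 genes with the highest rank for a positive difference. Among genes called as lower in the liver, 31 of 50 had such a correlation, and 0 of 117 among those called as higher. These correlations are a description, since arrays share slides and the muscle arrays also enter the difference. The steroid synthesis genes *cyp11a1.1* and *cyp17a1* had correlations of 0.95 and 0.94 with the mean of the oocyte list. *fbxo32*, the muscle atrophy ubiquitin ligase atrogin-1, was also of this kind, with a correlation of 0.90. It had -1.47, -1.11, -1.74 and -2.10 on the liver LPS arrays, against 2.17, -0.73, 1.07 and 0.39 on the liver PBS arrays, and 2.14, 2.80, 2.98 and 2.45 on the muscle LPS arrays, against 2.41, 1.47, 2.69 and 1.85 on the muscle PBS arrays. Its liver groups were separate and its muscle groups overlapped. Its effect was -2.33 in the liver (limma adjusted p = 0.044) and 0.49 in the muscle, a difference of -2.82 (standard error 0.72, limma adjusted p = 0.247).

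**Figure D5:**
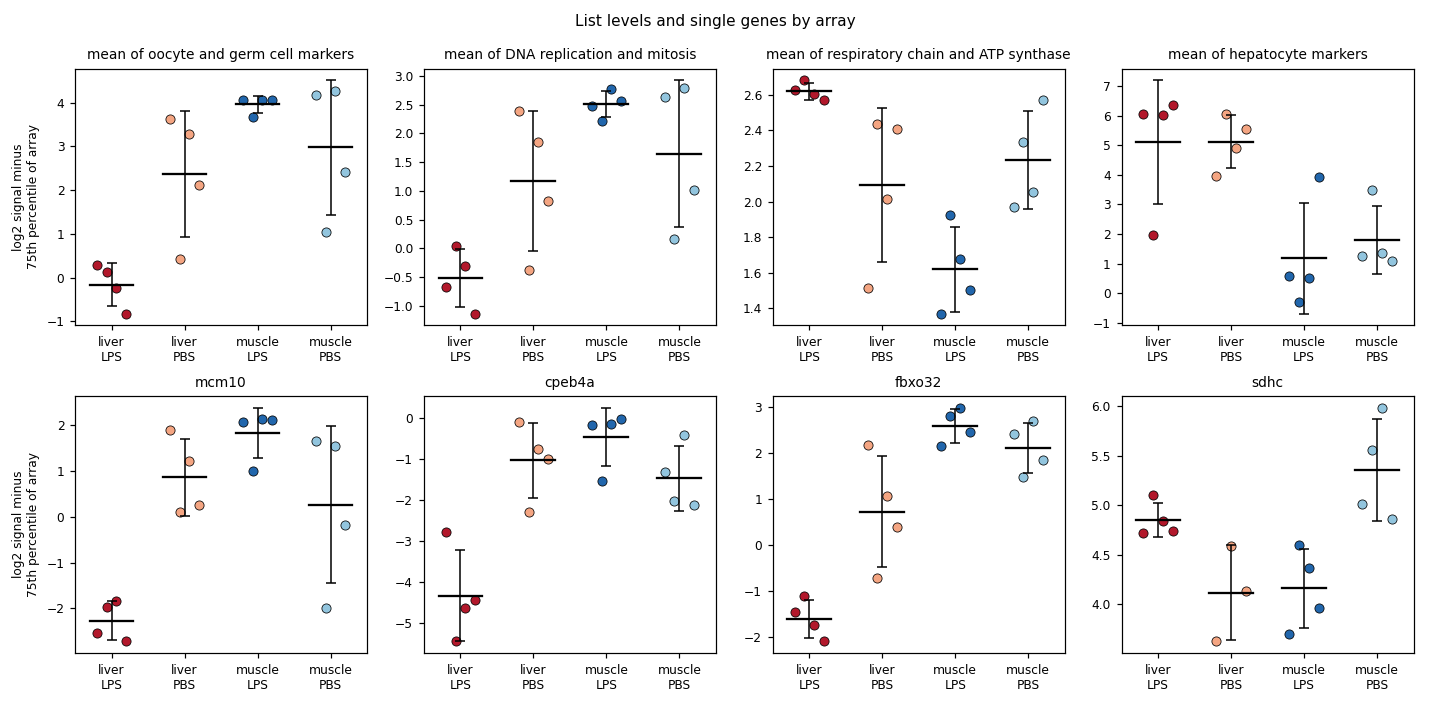
Mean level of 4 gene lists (upper row) and level of 4 genes (lower row) by array, as log2 signal minus the array's 75th percentile, in liver LPS, liver PBS, muscle LPS and muscle PBS; points are arrays, lines the means and bars the SD (n = 4, or 3 for liver PBS in *sdhc*). The oocyte list is lowest on the liver LPS arrays, at -0.82 to 0.28, and *mcm10* lies between -2.72 and -1.85 there.

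The inflammatory lists were also fitted with the level of the oocyte list as a covariate, since that level moved with LPS in the liver. The median difference was then 0.08 for cytokines, -0.47 for chemokines, -0.30 for feedback inhibitors, -0.15 for AP-1, ATF3 and C/EBP genes and -0.71 for interferon-related genes. The sign thus turned for all but the cytokines. The median was 0.28 for neutrophil markers and 0.46 for the respiratory chain. All liver LPS arrays lay below all liver PBS arrays on the oocyte list. In the liver this fit therefore cannot separate that level from LPS, and no reversal of the direction is established. Without liver PBS replicate 1 and muscle PBS replicate 2, which stood apart, the medians were 0.76 for cytokines, 0.89 for chemokines, 0.80 for feedback inhibitors, 0.67 for AP-1, ATF3 and C/EBP genes, 0.64 for interferon-related genes, 1.15 for neutrophil markers and 0.84 for the respiratory chain. For the oocyte list it was -2.67 and for DNA replication -1.79 without these arrays. How far the content of the pools sets these differences was not tested.

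Genes called in the liver were followed into the muscle, whose arrays share the fit and its estimate of spread with the liver calls. Of the 117 genes called as higher in the liver, 97 (82.9%) had a positive effect in the muscle, as did 43.6% of all genes, and their median effect was 0.57 in the muscle, against 2.71 in the liver. For 91 of the 117, the 95% interval of the muscle effect included 0. Of the 50 genes called as lower in the liver, 41 (82.0%) also had a positive effect in the muscle, with a median of 0.41 in the muscle, against -3.05 in the liver. Genes are not independent replicates, and these counts describe the same 16 arrays.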

How the data were processed

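Gene expression was measured with one-colour Agilent arrays. The authors deposited, per array, the processed signal of each spot, an intensity with background and spatial trend removed by Agilent Feature Extraction (version 10.4.0.0 per the labels, 10.7.3.1 per the file headers), with the software's flags, and a table of normalized log2 values. Here the log2 of the processed signal was taken, the 75th percentile of each array subtracted, outlier spots dropped and repeated spots averaged. The authors' table lay within 0.01 of these values on 100% of the 35763 probes compared, after each probe was centred. The columns of that table had medians of -0.64 to 0.50, and its offset per probe is not described. Of 43603 probes, 25069 matched a symbol (12858 genes) through RefSeq names for GRCz12tu, a table used for names only. No sequence of a probe was at hand.

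Probes were kept when their raw signal lay between the 20th and 95th percentile on at least 1 of the 16 arrays. The 4 groups were fitted with limma 3.58.1 in R 4.3.3 (lmFit, eBayes), with Benjamini-Hochberg adjustment over all probes. The effects in each tissue are contrasts of the same fit. The code was tested on simulated data. A probe dim on all arrays of 1 group got a bound in place of a fold change, set against the lowest signal detected on each array. The number of arrays limits the precision. No separate cultures or animals are named beyond pools of 3 fish, so p-values measure the spread between pools, together with that between slides. The named genes are in each direction the 15 with the largest difference among called genes, filled with those of smallest unadjusted p, up to 4 of smallest p in each of 37 lists, and those named in the paper's text. The members, lists and rule were chosen with earlier results of these data known. Lists are described by counts and medians, with no set test. The alternatives were other normalizations, filters and thresholds, blocks for slide, pool and replicate number, array weights, gene means, tissues fitted alone and each array left out.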

Additional observations from a re-analysis of the deposited data

Results flagged for a closer look

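The difference of effects of *npsn*, 5.03 on its called probe, passed the test of the difference itself. Single arrays stood far from the other 3 of their group in 10 of 175 checks, and chance flags about 1 in 20. Liver LPS replicate 2 had a mean hepatocyte marker level of 1.96, against 6.0 to 6.37 on the other liver LPS arrays, and a *ccl20a.3* level of 2.92, against 4.62 to 4.93. Liver PBS replicate 1 had an *mpeg1.2* level of -3.64, against -1.53 to -1.25 on the others. Muscle LPS replicate 2 had an oocyte list level of 3.67 (others 4.05 to 4.07), *zp3b* at 6.0 (others 6.99 to 7.09), *mcm10* at 1.01 (others 2.06 to 2.14), *cpeb4a* at -1.52 (others -0.17 to -0.02) and *gpr84* at 0.42 (others -1.26 to -1.07). Muscle PBS replicate 2 had a mean hepatocyte marker level of 3.5 (others 1.09 to 1.35) and *acod1* at -3.20 (others -3.58 to -3.57).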

How the results depend on the processing

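For the difference between tissues, 1 gene was called. The count was 2 with quantile normalization (*mlycd* and *npsn*), 2 with array quality weights (*cpeb4a* and *npsn*), 5 with slide as a fixed block (*myh7l*, *nppa*, *tnnc1a*, *tnni4a* and *tnnt2a*) and 11, all higher, with values floored at the highest limit of detection, and it was 0 at an adjusted p under 0.01, with the mean over the probes of a gene, with normexp on the median signal and with the oocyte list level as a covariate. It was 0 to 2 when an array was left out, the higher count being without liver LPS replicate 2 (*bag3* and *npsn*). *npsn* was called under 24 of 37 alternatives. For the liver, against 167 genes, it was 12 with slide as a fixed block, 1892 with array quality weights, 44 at 0.01, 86 higher and 21 lower with gene means (1.1e+02 in all), 82 in the liver alone, 15 with the oocyte covariate, 76 without liver PBS replicate 1 and muscle PBS replicate 2, and 45 (without liver LPS replicate 4) to 861 (without liver PBS replicate 2) with an array left out. For the muscle, against 3 genes, it was 0 with slide as a fixed block, at 0.01, in the muscle alone, with normexp and with the floor, 9 with array quality weights, 14 with the oocyte covariate, 5 without the same 2 arrays, and 0 to 4 with an array left out.

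The replicate number was tried as a block in 2 ways. Within a tissue the replicate block called 0 genes for the difference and 0 in the muscle. With the pool as a replicate block across tissues, 1016 genes were called for the difference, 176 higher and 840 lower. The deviations of same-numbered liver and muscle arrays correlated at 0.46 to 0.76 after PBS and at -0.07 to 0.40 after LPS. Those of unlike number correlated at -0.74 to 0.72 after PBS and at -0.59 to 0.42 after LPS. After PBS, the positive correlations of unlike number were those between replicates 1 and 3 and between replicates 2 and 4. Of the liver arrays, 3 of 4 after PBS and 1 of 4 after LPS correlated best with their own number. In the liver, the oocyte list level of PBS replicates 1 to 4 was 3.63, 0.43, 3.28 and 2.11. In the muscle it was 4.16, 1.05, 4.26 and 2.42, with the same replicates high and low. After LPS it was 0.28, 0.13, -0.23 and -0.82 in the liver and 4.07, 3.67, 4.06 and 4.05 in the muscle. The sources used here do not say whether liver and muscle of a number came from the same fish. A pairing is thus a hint from the data only, and the number of genes called for the difference depended on it.

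With the oocyte covariate the difference turned to -1.03 for *tnfa*, -1.73 for *card9* and -0.63 for *gpr84*, and the median to -0.47 for chemokines, -0.30 for feedback inhibitors, -0.15 for AP-1, ATF3 and C/EBP genes, -0.71 for interferon-related genes, 0.17 for oocyte markers and 0.47 for DNA replication. *LOC567472* turned to -0.58 with slide as a fixed block and *card9* to -0.28 without the 2 arrays. Of 1771 values of 48 genes under the alternatives, these 5 turned and 35 passed the threshold that had not. The passes were not spread evenly over the alternatives. None of them came with an array left out, and the pool block called by far the most genes, 1016. Each of the genes ranked highest for a negative difference passed under 1 alternative only, save *cpeb4a* with 2. So did those ranked highest for a positive difference, save *higd1a* with 2 and *or15.37*, *pim2* and *ehd1b* with none. The alternatives refit the same arrays, so these passes are not separate support for each gene. The cause of the turns and passes was not tested. The median difference over all probes was 0.37, and 0.13 after quantile normalization. Within slides 6 (liver) and 10 (muscle), the difference was 5.60 for *ccl20a.3*, 0.38 for *il1b*, 3.44 for *atf3* and -3.96 for *mcm10*. The liver part of these values rests on 1 LPS array, replicate 1. That array had the smallest share of spots well above background (39.4%) and the most outlier spots (3399). The planned normexp on the mean signal was not run, since no such column was found in the files used here. The covariate, the floor, normexp on the median signal, another centring and the set without 2 arrays were chosen after seeing the data.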

Other observations

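Genes of heart muscle were high on 1 liver array. *tnnt2a*, cardiac troponin T, had levels of 4.91, -2.96, -4.06 and -4.40 on the liver LPS arrays, against -3.72, -1.64, -2.83 and -3.48 on the liver PBS arrays. *myh7l*, a myosin heavy chain gene, had 3.63, -4.52, -4.83 and -1.24 on the liver LPS arrays, against -4.52, -4.10, -3.11 and -3.68 on the liver PBS arrays, and *tnnc1a*, a troponin C gene of heart and slow muscle, had 1.29, -4.37, -4.70 and -4.73, against -5.33, -3.97, -4.36 and -4.97. Liver LPS replicate 1 was the high array in each. The atrial peptide gene *nppa* was at 0.17 on that array and at -5.58 to -4.74 on the other liver LPS arrays, against -5.47 to -4.14 on the liver PBS arrays. The troponin I gene *tnni4a* was at 2.2 on that array and at -6.01 to -5.17 on the other liver LPS arrays, against -5.67 to -4.49 on the liver PBS arrays, and was well above background in both muscle groups. The differences of effects of these 5 genes, 0.86 to 2.43 with standard errors of 1.34 to 2.08, did not pass (limma adjusted p = 0.582 to 0.781), and they are the genes called when slide was a fixed block. These genes were chosen after their values were seen.

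Red blood cell genes varied between pools in both tissues. *hbaa2*, an alpha globin gene, had 4.53, 5.80, 6.16 and 5.56 on the liver LPS arrays, against 1.23, 3.11, 5.48 and 5.82 on the liver PBS arrays, and 2.16, 2.59, 2.56 and 2.23 on the muscle LPS arrays, against 3.33, 4.34, 3.58 and 4.42 on the muscle PBS arrays. The muscle groups were separate and the liver groups overlapped, and the difference of 3.13 (standard error 1.07) had a limma adjusted p of 0.253. Exocrine pancreas markers had a median difference of 1.72 with 1 of 23 genes at an unadjusted p under 0.05, *ptf1a*, which was above background on 1 liver LPS array and on no other. Their mean level was 5.09 to 7.15 on liver LPS arrays, 3.75 to 5.31 on liver PBS arrays, -0.90 to 3.83 on muscle LPS arrays and 0.88 to 3.27 on muscle PBS arrays.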
